A study of Homo sapiens with 32 samples.

Results

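High-imatinib line 2, a K-562 line resistant to 2 µM imatinib, was compared with low-imatinib line 2, a K-562 line resistant to 0.5 µM imatinib, on 4 arrays each, 8 of the 32 arrays of the study. K-562 is a human cell line from chronic myeloid leukaemia that carries the BCR-ABL1 fusion kinase. Imatinib blocks that kinase, and each resistant line was obtained by raising the drug concentration in steps. The other 24 arrays, 4 per set, hold high-imatinib line 1 and low-imatinib line 1, nilotinib lines 1 and 2 (resistant to 0.1 µM nilotinib, a second inhibitor of the same kinase), and treatment-naive sets S and K. The number of a line is that of its biological replicate. No label says whether high-imatinib line 2 was derived from low-imatinib line 2, whether any line is 1 clone, or how long it was kept in drug. The growth text is shared by all samples and names a medium with neither drug, so whether imatinib was present at harvest is not known.

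The pair was chosen on its overall expression, as the 2 resistant lines that lay nearest to each other. The root mean square distance over 14884 genes was 0.288 log2 units, against 0.312 for the next pair of resistant lines (low-imatinib lines 1 and 2) and 0.343 for the one after it (high-imatinib line 2 and low-imatinib line 1). The 4 arrays of a line are technical replicates, so the p-values of this contrast measure a difference against the spread between arrays of 1 RNA source and not between independently raised lines. Since the contrast also served to choose the pair, its values and counts describe the 2 lines. The same dose step in line 1 is given beside them. That pair was among those ranked, at a distance of 0.523, so its size is not independent of the choice.

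Cells that survive under a kinase inhibitor can keep their oncogenic signal despite the drug, replace it with signals from other kinases, or alter the stress and survival programmes that decide between growth and death. Amino acid shortage, endoplasmic reticulum stress and other insults meet in the integrated stress response, in which the transcription factor ATF4 drives genes of amino acid synthesis, transfer RNA charging and growth arrest. BCR-ABL1 feeds the RAS and MAPK cascade, whose output is read from immediate early genes such as EGR1 and from feedback inhibitors of the SPRY and DUSP families, and it also feeds STAT5.

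Values are the deposited signals on a scale that reads as log2, so a difference of 1 is a doubling, and each difference is high-imatinib line 2 minus low-imatinib line 2, with its standard error from limma. A gene was called higher or lower at a Benjamini-Hochberg adjusted p under 0.05 over all 14884 genes. In this sense 1055 genes were higher in high-imatinib line 2 (7.09% of those tested) and 890 were lower (5.98%). With a difference of at least 1 as well, 68 genes were higher (0.457%) and 87 were lower (0.585%). At the edge of this second call, MAP7 lay just inside with 1.01 and BCAP31 just outside with 0.998. The median difference over all genes was 0.03. Arrays correlated at r between 0.982 and 0.991 within high-imatinib line 2 and between 0.985 and 0.991 within low-imatinib line 2.

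The erythroid regulators of K-562 that were measured lay above the median level of all genes in both lines (6.50 in high-imatinib line 2 and 6.45 in low-imatinib line 2). GATA1, the master regulator of the red cell lineage, averaged 9.43 in high-imatinib line 2 and 9.69 in low-imatinib line 2. KLF1, the activator of globin genes, averaged 8.71 and 9.04 in the same order of lines. These levels lay above those of 96.1% and 91.3% of genes in high-imatinib line 2. TAL1, EPOR and LMO2 stood lower in that line, with means of 7.89, 7.82 and 7.01, above 81.0%, 80.0% and 63.4% of genes. The 8 other erythroid markers (the globins among them) were not analysed here. BCR, which forms the first part of the fusion gene, read 8.19, 8.31, 8.29 and 8.01 on the arrays of high-imatinib line 2, against 8.40, 8.30, 8.29 and 8.28 on those of low-imatinib line 2. The arrays overlapped, and the difference of -0.12 ± 0.10 was not called (limma, adjusted p = 0.554). KIT, a receptor kinase that imatinib also blocks, was not called either, with -0.13 ± 0.17 (limma, adjusted p = 0.716), and 0 of 5 measured drug target kinases were called in either direction.

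The gene with the largest rise was PASD1 on the X chromosome, a cancer-testis antigen that is normally limited to germ cells and represses the circadian clock. Its signal was 8.29, 8.27, 8.42 and 8.55 in high-imatinib line 2, against 4.87, 4.89, 5.16 and 4.97 in low-imatinib line 2. All arrays of high-imatinib line 2 lay far above all arrays of low-imatinib line 2, with a difference of 3.41 ± 0.15 (10.6-fold; limma, adjusted p = 7.76e-18). Among the 8 sets the mean of 8.38 in high-imatinib line 2 stood highest, and nilotinib line 2 followed with 6.99. FMR1NB, another X-linked cancer-testis antigen, read 6.54, 6.76, 6.98 and 7.22 in high-imatinib line 2, against 5.02, 4.93, 4.98 and 4.95 in low-imatinib line 2, a difference of 1.90 ± 0.12. CTCFL, the testis relative of the insulator protein CTCF, read 8.31, 8.28, 8.39 and 8.26 in high-imatinib line 2, against 6.34, 6.38, 6.75 and 6.48 in low-imatinib line 2, a difference of 1.83 ± 0.13. For CTCFL the means were 8.31 in high-imatinib line 2 and 6.49 in low-imatinib line 2, against 8.45 and 8.82 in naive sets S and K. Of 7 measured members of the cancer-testis list, 3 were higher and 0 lower, beside 7.09% higher and 5.98% lower among all genes. The 3 were CTAG2 (0.84), GAGE2A (0.53) and GAGE12J (0.37). The last 2 were picked after their values were seen, and all 3 have near-identical copies whose transcripts a probe may share. The median of the 7 was -0.02.

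The other 9 of the 12 largest rises included VCAN, SCG3, TMOD2 and EMX2, while LOC650226 and DDIT4 are described further on. VCAN encodes versican, a large proteoglycan of the extracellular matrix, and it read 9.32, 9.02, 9.12 and 9.11 in high-imatinib line 2, against 6.53, 6.34, 6.45 and 6.69 in low-imatinib line 2, a difference of 2.64 ± 0.12. A second VCAN feature gave 0.58 and did not pass (limma, adjusted p = 0.140). SCG3, a granin of secretory granules, read 8.15, 7.42, 7.77 and 8.15 in high-imatinib line 2, against 4.96, 4.98, 5.32 and 5.59 in low-imatinib line 2. Neither gene overlapped between the lines, and SCG3 differed by 2.66 ± 0.19. TMOD2, which caps the pointed ends of actin filaments, rose by 2.17 ± 0.13, and the homeobox gene EMX2 by 2.17 ± 0.16. POPDC1, a membrane protein that binds cyclic AMP, rose by 1.85 ± 0.10, the aspartic protease CTSE by 1.67 ± 0.10, and the heparin-binding growth factor PTN by 1.59 ± 0.18. In SCG3 and TMOD2 the level in nilotinib line 1 was higher still, at 10.66 and 9.13, whereas EMX2, POPDC1, FMR1NB, CTSE and VCAN had their highest set mean in high-imatinib line 2.

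The largest fall was in CARMIL1, a regulator of actin capping protein. It read 5.86, 5.62, 5.88 and 5.69 in high-imatinib line 2, against 8.98, 8.85, 8.90 and 8.80 in low-imatinib line 2, a difference of -3.12 ± 0.13, or 8.71-fold (limma, adjusted p = 4.13e-18). GALNT5, an enzyme that starts O-linked glycan chains, read 6.40, 6.04, 5.98 and 6.60 in high-imatinib line 2, against 8.92, 8.92, 8.92 and 8.86 in low-imatinib line 2. The 4 arrays of low-imatinib line 2 were tightly grouped, and no array of high-imatinib line 2 came within 2 units of them. GALNT5 differed by -2.65 ± 0.12, and high-imatinib line 2 stood below all 7 other sets, which averaged 8.19 to 9.76. ASXL3, a chromatin protein of the Polycomb deubiquitinase family, fell by 2.58 ± 0.13, and the developmental transcription factor TFAP2B by 2.47 ± 0.13. HEPH, a ferroxidase that oxidises iron as it leaves the cell, fell by 2.28 ± 0.13, and NTS, the precursor of the peptide neurotensin, by 2.15 ± 0.14. The class III myosin MYO3B changed by -2.21 ± 0.09 and the long noncoding RNA LINC02433 by -2.17 ± 0.21. CCDC178 was 3.99-fold lower.

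**Figure D1:**
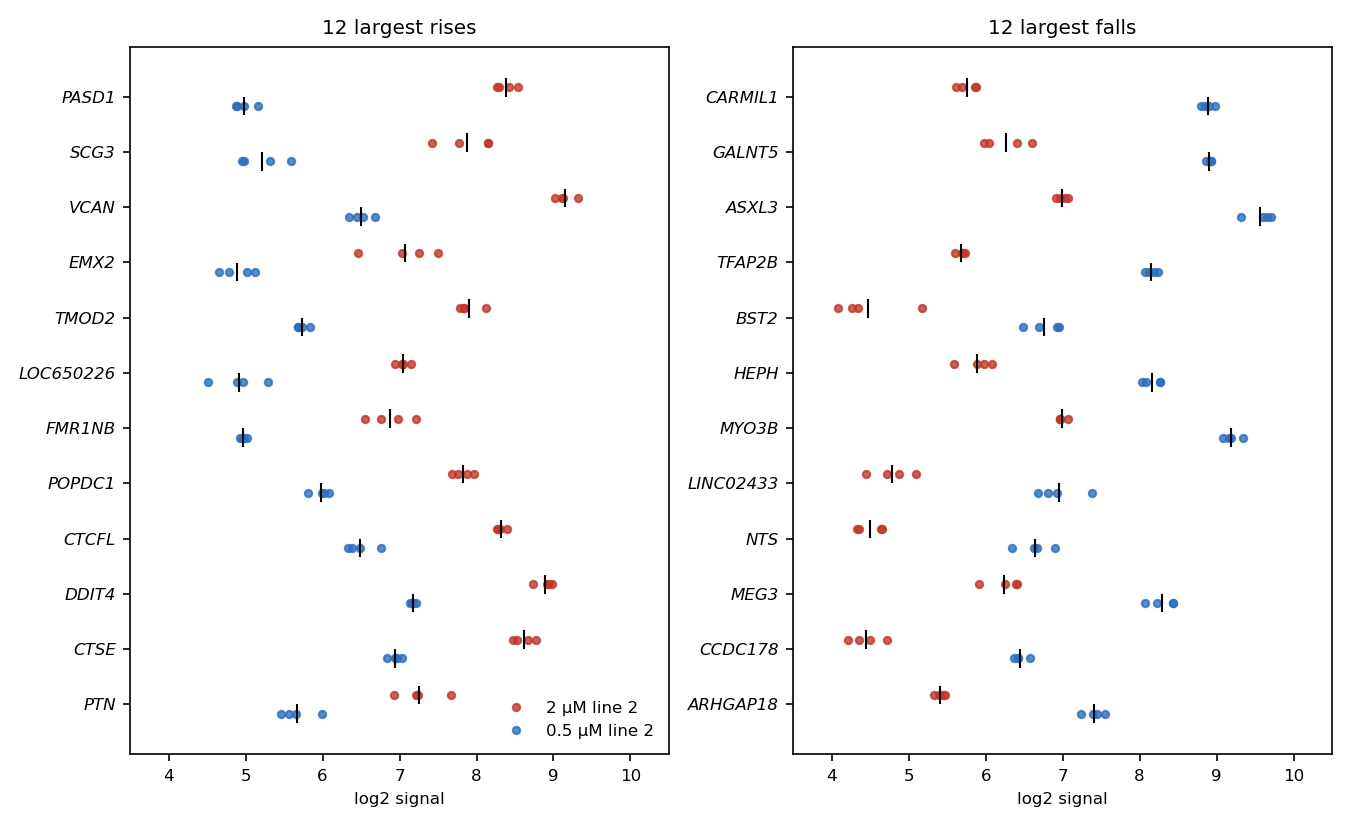
Log2 signal of the 12 genes with the largest rises and the 12 with the largest falls, each point 1 array (4 per line, 2 µM line 2 drawn above 0.5 µM line 2) and each black tick the mean of 4. No array of one line overlaps those of the other in any of the 24 genes, which the naming rule required (beside 12.6% higher and 10.8% lower without overlap among all genes). PASD1 rises by 3.41 and CARMIL1 changes by -3.12.

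The integrated stress response had more called members in high-imatinib line 2 than any other list in 1 direction. Of 18 measured genes, 12 were higher and 0 lower, beside 7.09% higher among all genes, and their median difference was 0.39. Leaving out each array of the 2 lines in turn gave 9 to 11 higher members and 0 lower. DDIT4, which restrains the growth kinase complex mTORC1 under stress, read 8.94, 8.98, 8.91 and 8.74 in high-imatinib line 2, against 7.14, 7.22, 7.16 and 7.17 in low-imatinib line 2. The lowest array of high-imatinib line 2, at 8.74, lay above the highest of low-imatinib line 2, at 7.22, with a difference of 1.72 ± 0.13 (3.3-fold; limma, adjusted p = 5.63e-12). The other called members, picked after their values were seen, were higher by 0.35 to 0.81. They include enzymes that make serine (PHGDH 0.39, PSAT1 0.47, PSPH 0.36), asparagine (ASNS 0.47) and cysteine (CBS 0.35, CTH 0.81), and the transcription factors ATF3 (0.57) and ATF5 (0.52). SESN2, a leucine sensor that also restrains mTORC1, differed by 0.55. ATF4 itself, which is controlled mainly at translation, differed by 0.22 ± 0.08 and was not called (limma, adjusted p = 0.0794), nor was DDIT3 with 0.13 ± 0.17 (limma, adjusted p = 0.732).

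WARS1, which charges transfer RNA with tryptophan, was also higher. It read 8.78, 8.72, 8.72 and 8.88 in high-imatinib line 2, against 7.55, 7.64, 7.33 and 7.35 in low-imatinib line 2, a difference of 1.31 ± 0.09. A second WARS1 feature gave 0.44 and did not pass (limma, adjusted p = 0.0967). XBP1, a transcription factor of the unfolded protein response, rose by 0.72 ± 0.13 in the endoplasmic reticulum stress list. In that list 3 of 10 measured genes were higher and 1 was lower, the chaperone CALR (-0.55 ± 0.08). Among all genes 7.09% were higher and 5.98% lower.

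Of 19 measured MAPK output genes, 5 were lower, 0 higher and 14 not called in line 2, beside 5.98% lower among all genes, with a median of -0.03. EGR1, an immediate early transcription factor, read 9.32, 9.35, 9.37 and 9.16 in high-imatinib line 2, against 10.22, 10.33, 10.23 and 10.28 in low-imatinib line 2. The arrays did not overlap, and EGR1 differed by -0.96 ± 0.11 (limma, adjusted p = 7.46e-08). A second EGR1 feature gave -0.93. The other 4, named after their values were seen, were the immediate early genes IER2 (-0.75) and JUN (-0.58), the ETS factor ETV4 (-0.49) and the feedback inhibitor SPRY4 (-0.31). FOS (0.03), DUSP6 (-0.10) and SPRY2 (0.03) were among the 14 that were not called.

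In the kinases that could replace the drug target, 3 of 24 measured genes were higher and 5 lower, beside 7.09% higher and 5.98% lower among all genes. PTK2B, a focal adhesion family kinase, read 7.20, 7.60, 7.18 and 6.93 in high-imatinib line 2, against 8.70, 8.65, 8.51 and 8.69 in low-imatinib line 2, and differed by -1.41 ± 0.13 (limma, adjusted p = 2.99e-10). SYK, a kinase that acts below immune receptors, ran the opposite way, with 6.43, 6.36, 6.24 and 6.34 in high-imatinib line 2, against 5.20, 5.18, 5.17 and 5.32 in low-imatinib line 2, a difference of 1.13 ± 0.11. The others, picked after their values were seen, were the receptor AXL (-1.19), the insulin receptor INSR (-1.14), JAK2 (-0.51) and JAK1 (-0.40) among the lower, and IGF1R (0.65) and TEC (0.52) among the higher. INSR and IGF1R, close relatives that share insulin-like ligands, thus differed in opposite directions. STAT5A, also chosen after its value was seen, differed by -1.41 ± 0.15, reading 6.62, 7.03, 6.85 and 6.21 in high-imatinib line 2, against 8.01, 8.08, 8.08 and 8.18 in low-imatinib line 2. In the list of STAT5 targets 4 of 15 were higher and 0 lower, beside 7.09% and 5.98% among all genes, led by the survival kinase PIM2 (0.80 ± 0.12). BCL2L11, which encodes the pro-death protein BIM, averaged 6.96 in high-imatinib line 2 and 7.78 in low-imatinib line 2, a difference of -0.82 ± 0.11. In the BCL2 family 1 of 16 was higher and 2 were lower, beside the same shares.

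Of 30 measured interferon response genes, 8 were higher, 5 lower and 17 not called, beside 7.09% higher and 5.98% lower among all genes. BST2, which tethers budding virus particles to the cell, read 4.09, 5.17, 4.27 and 4.34 in high-imatinib line 2, against 6.70, 6.92, 6.48 and 6.95 in low-imatinib line 2, and differed by -2.30 ± 0.17. The antiviral membrane proteins IFITM1 (-1.32) and IFITM3 (-1.12), which resemble each other closely, were lower as well, whereas RSAD2 (1.26), an antiviral enzyme, HERC5 (0.69), the ligase that attaches ISG15, and its relative HERC6 (1.06) were higher. These 5 were chosen after their values were seen. Without array 1 of high-imatinib line 2 the count of higher members was 5.

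Of 41 measured cell cycle genes, 5 were higher, 6 lower and 30 not called, with a median of 0.002, beside 7.09% higher and 5.98% lower among all genes. The proliferation marker MKI67 read 9.46, 9.52, 9.46 and 9.49 in high-imatinib line 2, against 10.18, 10.14, 10.19 and 10.11 in low-imatinib line 2, a difference of -0.67 ± 0.09. Erythroid genes held 1 higher and 5 lower members of 19, and their mean level per array was 8.06 to 8.08 in high-imatinib line 2, against 8.19 to 8.31 in low-imatinib line 2. LMO2, a bridging protein of the GATA1 and TAL1 complex, differed by -0.75 ± 0.11. In the stem cell list 0 of 15 were higher and 3 lower, led by LIN28B (-0.86 ± 0.14), which blocks the maturation of let-7 microRNAs. Of the granulocyte and monocyte markers 3 of 19 were higher and 0 lower, led by the lysosomal protein CD68 (0.83 ± 0.10), with a mean level per array of 5.86 to 6.02 in high-imatinib line 2, against 5.78 to 5.92 in low-imatinib line 2. The part of other cell types in the results was not tested. Lymphoid (17 genes) and mast cell (10 genes) markers had 0 called members, and the epithelial and fibroblast list had 1 lower of 11, KRT18 (-0.31 ± 0.09). A second KRT18 feature gave -0.19 and was not called (limma, adjusted p = 0.369).

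In antioxidant response 3 of 14 were higher and 4 lower, beside 7.09% and 5.98% among all genes. The lower ones included TXNIP (-0.74 ± 0.14), an inhibitor of thioredoxin that responds to glucose. The same shares over all genes stand beside the next 3 lists. Adhesion genes were 3 higher and 1 lower of 15. Matrix genes were 3 higher and 1 lower of 21, the lower one being THBS1 (-0.58 ± 0.10). Cholesterol synthesis had 1 higher and 1 lower of 20, the higher one being SQLE (0.86 ± 0.10), an enzyme early in the sterol branch. The lysosomal enzyme HEXA rose by 0.83 ± 0.11, the chemokine receptor CXCR4 by 0.78 ± 0.13, the sestrin SESN3 by 0.60 ± 0.13 and the transcriptional repressor ZEB2 by 0.62 ± 0.10. The conjugating enzyme GSTP1 differed by -0.67 ± 0.09, the stress gene NDRG1 by -0.77 ± 0.12 and the ribosomal protein gene RPL36 by -0.60 ± 0.11. Adhesion molecule L1CAM, picked after its value was seen, rose by 1.49 ± 0.12. The Wnt receptor FZD6, at 0.34 ± 0.11, was barely called (limma, adjusted p = 0.0452) and lost its call when any 1 of 7 arrays was left out.

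The same dose step in line 1 was larger, and the 2 steps shared no arrays. Called genes were 1945 (13.1%) in line 2 and 5025 in line 1 (33.8%, with 13.9% higher and 19.9% lower). Line 2 was chosen as the nearest pair, so the larger distance in line 1 (0.523, against 0.288) was fixed by that choice. The larger counts in line 1 are therefore a description. In line 1 836 genes were past both calls (5.62%), 411 of them higher (2.76%) and 425 lower (2.86%). The median absolute difference over all genes was 0.141 in line 2 and 0.208 in line 1. Of the 155 genes past both calls in line 2, 56 (36.1%) were called in the same direction in line 1, 54 (34.8%) in the opposite direction and 45 (29%) were not called. Among those past both calls in each line, 6 were higher in both (8.82% of the 68 in line 2 and 1.46% of the 411 in line 1) and 20 were lower in both (23% of the 87 in line 2 and 4.71% of the 425 in line 1). In 10 genes a rise in line 2 met a fall in line 1, and in 12 a fall in line 2 met a rise in line 1. The difference between the steps, tested in 1 fit over all arrays, passed for 123 of the 155 (79.4%), beside 25.9% of all genes, but this test contains the line 2 contrast by which the genes were picked.

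**Figure D2:**
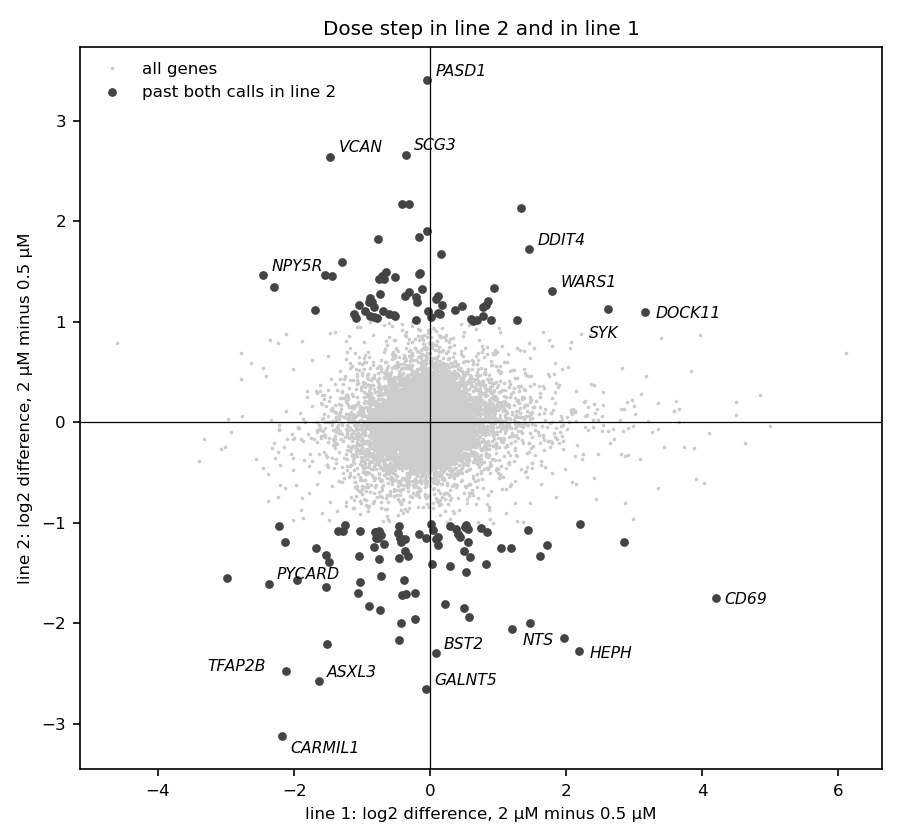
Log2 difference of 2 µM minus 0.5 µM in line 2 (vertical) against the same difference in line 1 (horizontal), each point 1 gene; dark points are the 155 genes past both calls in line 2. The dark points lie in all 4 quadrants, with CARMIL1 and TFAP2B low in both lines, DDIT4 and WARS1 high in both, and CD69 at -1.75 in line 2 against 4.19 in line 1.

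Genes that moved alike in both lines were named by rule. On the higher side were DDIT4 (1.72 in line 2 and 1.45 in line 1), WARS1 (1.31 and 1.79), SYK (1.13 and 2.61), the locus LOC650226 (2.13 and 1.34) and DOCK11 (1.10 and 3.16), an activator of the GTPase CDC42. For DDIT4 the 2 steps did not differ beyond their error (difference 0.27 ± 0.18; limma, adjusted p = 0.312), while for SYK and DOCK11 the step in line 1 was larger. In DDIT4 both low-imatinib lines stood below the naive sets, with means of 7.17 in low-imatinib line 2 and 8.18 in low-imatinib line 1, against 9.49 and 9.39 in naive sets S and K. In DOCK11 and SYK, too, both low-imatinib lines lay below both naive sets.

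On the lower side in both lines were CARMIL1 (-3.12 in line 2 and -2.18 in line 1), TFAP2B (-2.47 and -2.11), ASXL3 (-2.58 and -1.64), PYCARD (-1.60 and -2.37) and ICAM1 (-1.57 and -1.96). PYCARD is the adaptor of inflammasomes and ICAM1 an adhesion molecule bound by leukocyte integrins. PYCARD read 6.22, 5.99, 5.79 and 6.18 in high-imatinib line 2, against 7.41, 7.80, 7.76 and 7.62 in low-imatinib line 2. ICAM1 read 5.98, 6.16, 5.99 and 5.88 in high-imatinib line 2, against 7.40, 7.66, 7.57 and 7.65 in low-imatinib line 2. Neither gene overlapped between the lines. For TFAP2B the steps differed by -0.35 ± 0.19 (limma, adjusted p = 0.177), with set means of 5.68 and 8.15 in high- and low-imatinib line 2, and of 5.58 and 7.70 in high- and low-imatinib line 1. BCL2L11 also fell in both, by 0.82 in line 2 and by 0.94 in line 1.

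Other genes moved in opposite directions in the 2 lines. CD69, an early activation antigen of leukocytes, read 4.03, 4.21, 4.46 and 4.17 in high-imatinib line 2, against 5.84, 5.98, 5.86 and 6.19 in low-imatinib line 2, a difference of -1.75 ± 0.13. In line 1 the difference was 4.19 ± 0.13, so the steps differed by -5.94 ± 0.19 (limma, adjusted p = 7.06e-22). HEPH gave -2.28 in line 2 and 2.19 in line 1, and NTS gave -2.15 and 1.97. Versican ran the other way, with 2.64 in line 2 and -1.47 in line 1, although its second feature gave 0.58 and 0.20. S100A10, the partner of annexin A2 (1.47 and -1.54), and the neuropeptide Y receptor NPY5R (1.47 and -2.46) also rose in line 2 and fell in line 1. KIT was not called in line 2 but gave 1.94 ± 0.17 in line 1, and the 2 steps differed by -2.08 ± 0.25 (limma, adjusted p = 4.35e-08).

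The 5 MAPK output genes that were lower in line 2 were all higher in line 1, where 13 of 19 were higher and 1 lower (median 0.70). For EGR1 the step was -0.96 in line 2 and 2.98 in line 1, a difference of -3.95 ± 0.16 (limma, adjusted p = 3.8e-19), and the second EGR1 feature gave -0.93 and 1.55. The set means of EGR1 were 9.30 and 10.26 in high- and low-imatinib line 2, and 10.95 and 7.96 in high- and low-imatinib line 1, with low-imatinib line 1 the lowest of the 4. Of the integrated stress response genes 10 of 18 were higher and 4 lower in line 1 (median 0.49), 5 were higher in both lines and 4 were called in opposite directions. DDIT4, ASNS, PHGDH, SESN2 and ATF3 were higher in both lines, while CBS, PSPH, PSAT1 and CTH were higher in line 2 and lower in line 1. CTH, the last enzyme of cysteine synthesis from methionine, gave 0.81 in line 2 and -1.89 in line 1. Line 1 had more called genes overall (33.8%, against 13.1% in line 2), and the counts of most lists were larger there. Ribosomal protein genes had 5 higher and 3 lower of 33 in line 2, against 0 higher and 25 lower in line 1. In line 1 the cell cycle list had 3 higher and 24 lower of 41, and cholesterol synthesis 1 higher and 13 lower of 20, beside 13.9% higher and 19.9% lower among all genes.

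**Figure D3:**
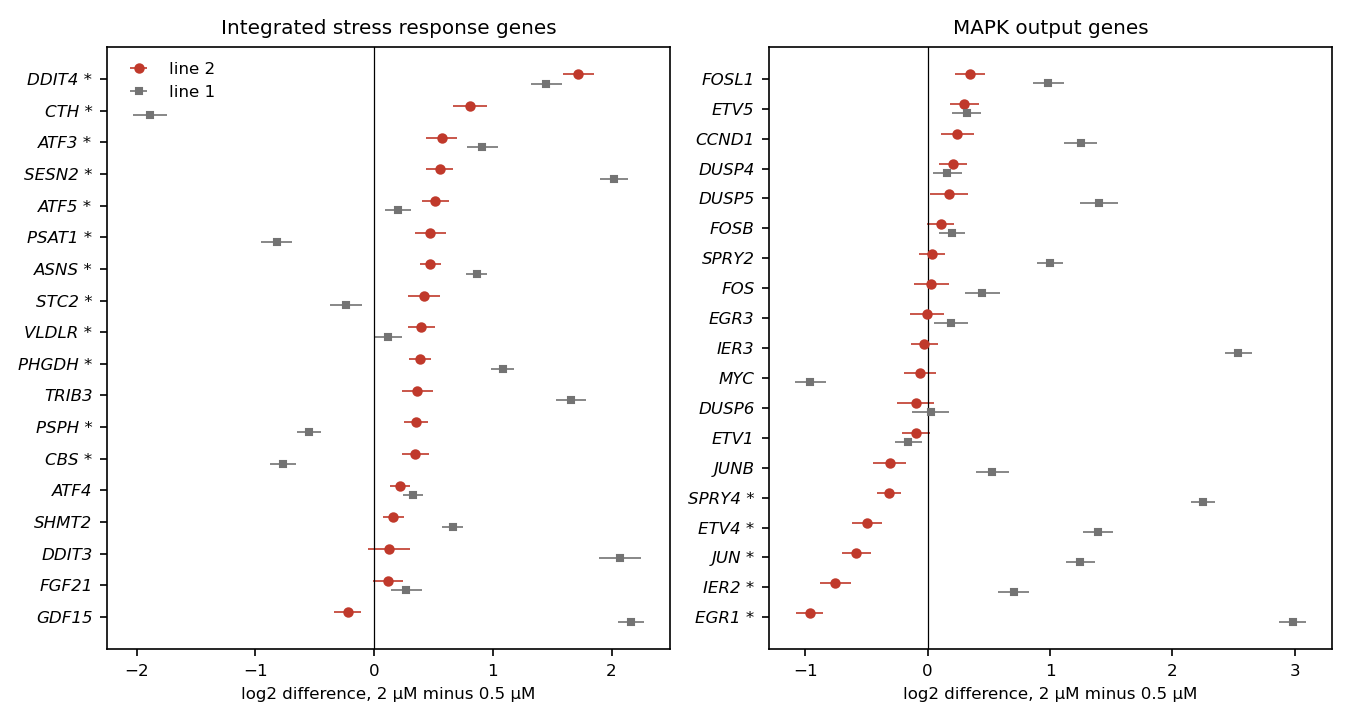
Log2 difference of 2 µM minus 0.5 µM with its standard error for the measured genes of the integrated stress response (left) and of MAPK output (right), circles for line 2 and squares for line 1; an asterisk marks genes called in line 2. In line 2 the 12 called stress response genes lie right of 0 and the 5 called MAPK genes left of 0, and in line 1 EGR1 lies at 2.98.

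Averaged over arrays and fitted with each line as 1 value, the contrast of both high-imatinib lines against both low-imatinib lines called 0 genes with limma (smallest adjusted p = 0.799). The unadjusted limma p was under 0.05 for 722 of 14884 genes, about the number that this threshold passes where no gene differs. This fit has 4 residual degrees of freedom and is the one that counts lines rather than arrays.

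The called genes were unevenly spread over the chromosomes, a feature that the choice of the pair did not use. On chromosome 15, 141 of 465 genes were higher (30.3%, beside 7.09% of all genes) and 5 were lower (1.08%, beside 5.98%), with a median difference of 0.23. On the X chromosome 105 of 569 were higher (18.5%) and 19 lower (3.34%), with a median of 0.12, and 17 of the 68 genes higher by at least 1 lie there, among them L1CAM (1.49), the splicing regulator MBNL3 (1.45) and the purine salvage enzyme HPRT1 (1.03). On chromosome 15 they are 8, among them SCG3, TMOD2, the tropomyosin gene TPM1 (1.01) and the imprinted gene NDN (1.26). These examples were picked after their values were seen. Chromosome 17 held 106 higher and 23 lower of 884. Chromosome 19 leaned the other way, with 30 higher (2.78%) and 130 lower (12%) of 1081. There 35 of 231 zinc finger genes named ZNF were lower and 7 higher, with ZNF714 (-1.70) lowest and ZNF257 (1.06) highest, while in the rest of the chromosome 95 of 850 were lower and 23 higher. In line 1 chromosome 15 had 71 higher and 81 lower genes of 465, and the X chromosome 105 higher and 115 lower of 569. Among all genes in line 1, 13.9% were higher and 19.9% lower. The median deviation from the gene-wise mean of the 8 sets shows where each set stood. On chromosome 15 it was 0.163 in high-imatinib line 2, 0.155 in nilotinib line 1 and -0.049 in low-imatinib line 2. On X high-imatinib line 2 (0.050) lay near naive sets S (0.041) and K (0.049), and low-imatinib line 2 stood at -0.071.

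**Figure D4:**
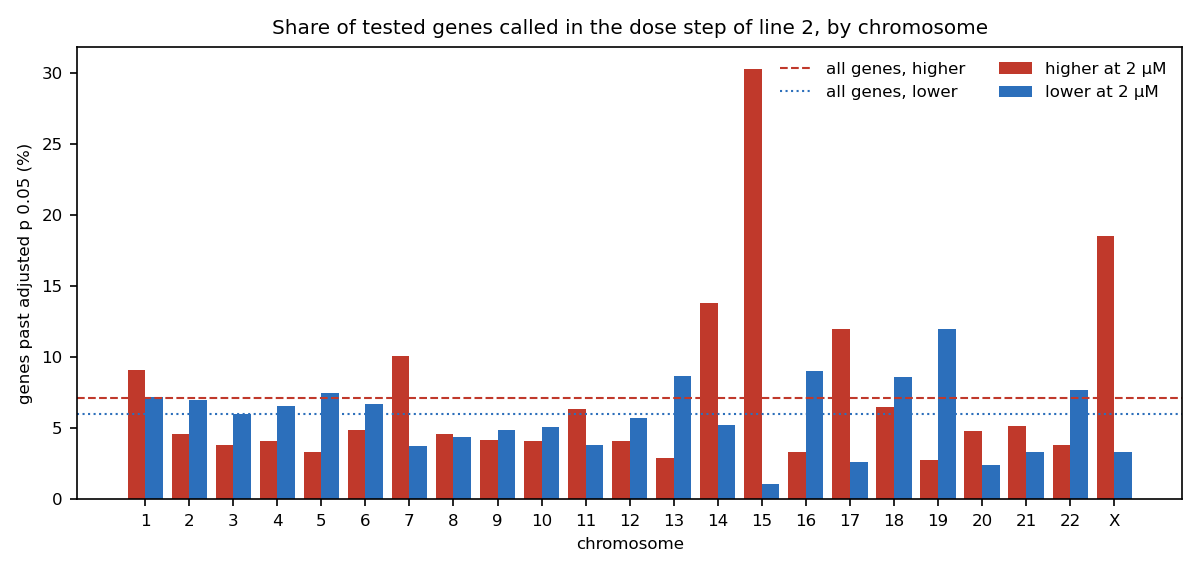
Percent of tested genes called higher (red) and lower (blue) in high-imatinib line 2 against low-imatinib line 2, by chromosome, with the percent over all genes as dashed and dotted lines. Chromosome 15 reaches 30.3% higher and X 18.5%, and chromosome 19 has 12% lower and 2.78% higher.

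Within chromosomes, the median difference was taken over windows of 25 neighbouring measured genes. Of 14319 windows, 51 reached an absolute median of 0.4 in line 2, beside 202 in line 1, the more distant pair. The 51 merged into 5 segments. The longest ran on chromosome 14 from MIR496 to PACS2, with 30 of 50 genes higher, 0 lower and a median of 0.42. Its first genes, with MIR412 (0.57) and MIR1247 (0.30) among the higher, belong to the DLK1 to DIO3 region described further on. TRAF3 (1.04), an adaptor of tumour necrosis factor receptors, and CDC42BPB (1.16), a kinase bound by CDC42, lie on the same chromosome and were past both calls. A segment on chromosome 15 from PPIB to MAP2K1 had 16 of 25 genes higher and 0 lower. There high-imatinib line 2 stood at 0.36 from the gene-wise mean of the 8 sets, nilotinib line 1 at 0.27 and low-imatinib line 2 at -0.07. On the X chromosome, 14 of 35 genes from MIR1298 to DCAF12L2 and 16 of 32 from BGN to CLIC2 were higher, with 0 lower in either. The single segment of lower genes, on chromosome 22 from BCL2L13 to RTN4R, had 16 of 34 lower and 0 higher. There low-imatinib line 2 stood at 0.57 above the gene-wise mean of the 8 sets and high-imatinib line 2 at 0.12. Nilotinib line 1 stood at -0.38, and the remaining sets lay between -0.19 and 0.09. In the chromosome 14 segment high-imatinib line 2 stood at 0.27 and low-imatinib line 2 at -0.10, with the other 6 sets between -0.12 and 0.09. Only RNA was measured, and DNA was not analysed here. The number of segments depended on the window, with 15 segments for 15 genes and 2 for 40.

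Noncoding genes of the imprinted DLK1 to DIO3 region on chromosome 14 were examined after MEG3 was seen among the large falls. This region expresses DLK1 from the paternal chromosome and, from the maternal one, MEG3 and a long series of microRNAs. MEG3, a long noncoding RNA, read 6.40, 6.25, 6.40 and 5.92 in high-imatinib line 2, against 8.44, 8.23, 8.07 and 8.43 in low-imatinib line 2. No arrays overlapped, and MEG3 fell by 2.05 ± 0.14, or by 3.25 on its second feature. DLK1, which encodes a membrane protein related to Notch ligands, read 9.62, 9.66, 9.65 and 9.51 in high-imatinib line 2, against 10.59, 10.67, 10.51 and 10.57 in low-imatinib line 2, a difference of -0.97 ± 0.10. Of 57 measured genes of the region 11 were lower and 4 higher, beside 5.98% lower and 7.09% higher among all genes. Of its 53 microRNA genes 9 were lower and 4 higher, beside 16 lower and 23 higher of 1019 microRNA genes elsewhere. In line 1 the region had 11 higher and 1 lower, beside 13.9% higher and 19.9% lower among all genes, with MEG3 at 1.20 and DLK1 at -2.02. MEG3 and DLK1 thus moved alike in line 2 and in opposite directions in line 1.

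**Figure D5:**
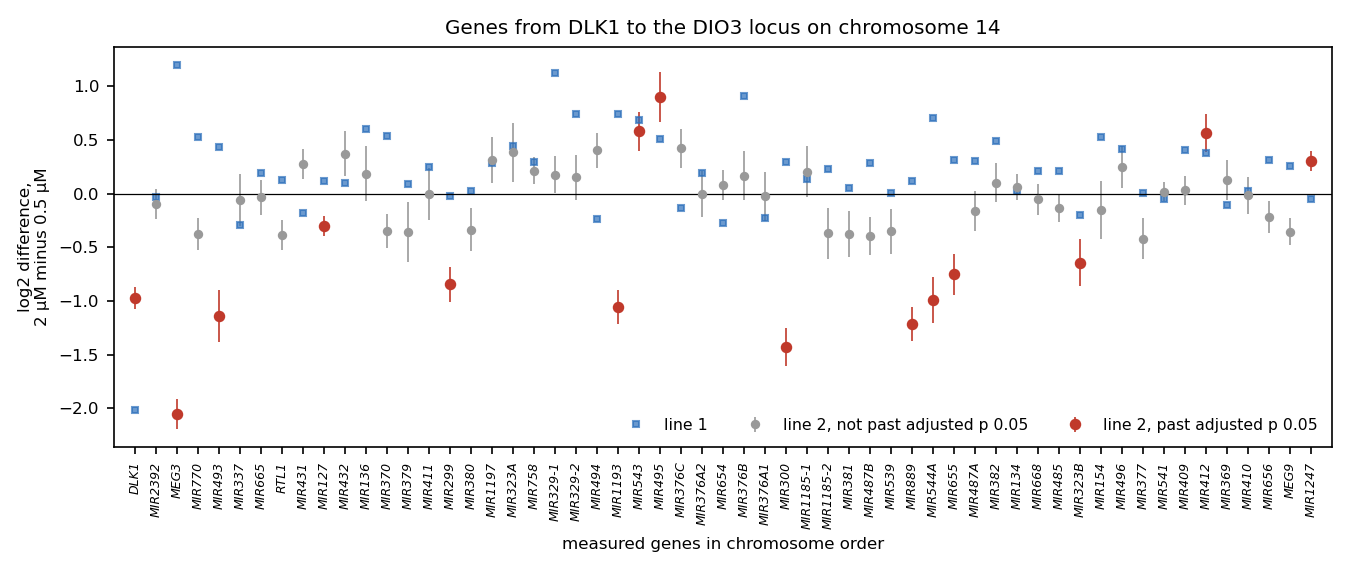
Log2 difference of 2 µM minus 0.5 µM for the 57 measured genes from DLK1 to the DIO3 locus in chromosome order, circles with standard errors for line 2 (red where called) and squares for line 1. In line 2 11 genes are called lower and 4 higher, with MEG3 lowest at -2.05; in line 1 MEG3 lies at 1.20.

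Across the genome 27 of 1072 measured microRNA genes were called higher in line 2 and 25 lower, beside 7.09% and 5.98% of all genes. Past both calls were 6 of the 1072, all of them lower. Among all genes the shares past both calls were 0.585% lower and 0.457% higher. All 6 matched RefSeq entries. Mature sequences are shown for the 4 of them with the lowest differences and for let-7f, which shares its seed with miR-4500, with the seed (bases 2 to 8) in capitals and coordinates of the mature form on GRCh38.p14. For miR-889 and miR-493 1 of 2 arms is shown. The sequences are those of RefSeq, and no label says whether an array feature reads the mature or the precursor RNA.
hsa-miR-4500 (chr13:87618671-87618687, minus strand): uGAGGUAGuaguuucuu
hsa-let-7f-5p (chr9:94176353-94176374, plus strand): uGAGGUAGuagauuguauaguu
hsa-miR-300 (chr14:101041414-101041435, plus strand): uAUACAAGggcagacucucucu
hsa-miR-889-3p (chr14:101047949-101047969, plus strand): uUAAUAUCggacaaccauugu
hsa-miR-493-5p (chr14:100869075-100869096, plus strand): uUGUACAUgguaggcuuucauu

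The gene MIR4500 read 4.23, 4.53, 4.22 and 4.92 in high-imatinib line 2, against 5.92, 6.05, 6.11 and 6.36 in low-imatinib line 2, and differed by -1.64 ± 0.22, with -1.53 in line 1. Its seed GAGGUAG is that of the let-7 family. MIRLET7F1 read 3.22, 3.33, 3.39 and 2.92 in high-imatinib line 2, against 4.06, 3.67, 4.28 and 5.01 in low-imatinib line 2, and the arrays did not overlap. The family was examined after MIR4500 was seen to be lower, so the count includes a gene already known to be called. Of 13 measured genes with this seed 2 were lower and 0 higher, beside 5.98% lower and 7.09% higher among all genes. Their median was -0.11, and the other 11 were not called. The members of this seed family thus did not move as 1 group.

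MIR300, MIR889, MIR493 and MIR1193 lie in the DLK1 to DIO3 region and have different seeds. MIR300 read 3.74, 3.88, 3.89 and 4.18 in high-imatinib line 2, against 5.71, 5.02, 5.37 and 5.31 in low-imatinib line 2. MIR889 read 4.61, 4.56, 5.32 and 4.78 in high-imatinib line 2, against 6.10, 5.81, 5.99 and 6.24 in low-imatinib line 2. Neither overlapped between the lines, whereas array 3 of high-imatinib line 2 reached into the range of low-imatinib line 2 for MIR493 (-1.14 ± 0.24). MIR495, in the same region, ran the other way, with 6.38, 5.97, 6.95 and 6.64 in high-imatinib line 2, against 5.79, 5.48, 5.57 and 5.49 in low-imatinib line 2, a difference of 0.90 ± 0.23.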

How the data were processed

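RNA was hybridised to whole-transcript arrays, 4 technical replicates for each of 8 sets, per the labels' protocols. The deposited table holds log2 values for 53617 features, made by the authors with Transcriptome Analysis Console 4.0 per the submitters' processing notes. Base 2 was inferred from the range of values (1.24 to 14.2). How they were normalized is not given in the sources used. Detection calls were not used, so low levels may be background, and precision is limited by the number of arrays. Of the features, 16098 carried 1 gene symbol, all matched by gene identifier to the RefSeq annotation of GRCh38.p14, which served for names and gene order. A gene with several features (779 genes) was read from the one with the highest mean, which left 14884 genes.

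All 32 arrays entered 1 fit in limma 3.58.1 (R 4.3.3), with 1 mean per set (24 residual degrees of freedom), with contrasts for the dose step in line 2, the step in line 1 and their difference. A second fit used 8 set means. Adjusted p-values are Benjamini-Hochberg. The fit was tested on simulated data. Named were the 12 largest rises and falls whose arrays did not overlap, 5 genes per direction past both calls (adjusted p under 0.05, difference of at least 1) in both lines, 3 per direction past both with opposite sign, the most changed called member of each list, and BCR and KIT. Of 33 lists, 32 had measured members. The members and lists were chosen with earlier results of these data known. Array numbers did not pair the samples (correlations of deviations between same-numbered arrays of line 2 were -0.05 to 0.08). The fits were repeated without the dimmest 40% of genes, with every feature, after other normalizations, with the replicate block, with the main axis of technical variation taken out, and without each array in turn.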

Additional observations from a re-analysis of the deposited data

Results flagged for a closer look

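The dose step differed between the lines in 46 of the 57 named genes (limma, adjusted p under 0.05 for the step in line 2 minus the step in line 1). The test compares 4 arrays per line, so it measures the difference against technical spread, and most of these genes were named for their step in line 2. In 22 genes the step of line 2 was the higher one, on the log2 scale: VCAN 4.11, NPY5R 3.93, PASD1 3.45, SCG3 3.02, S100A10 3.01, PTN 2.89, CTCFL 2.60, TMOD2 2.58, EMX2 2.49, POPDC1 2.01, FMR1NB 1.95, PIM2 1.77. The rest of these were smaller: CTSE 1.51, SESN3 1.44, SQLE 1.21, CTAG2 0.95, CXCR4 0.87, LOC650226 0.79, PYCARD 0.77, THBS1 0.76, HEXA 0.54, RPL36 0.51. In 24 genes it was the lower one: CD69 -5.94, HEPH -4.47, NTS -4.11, EGR1 -3.95, ARHGAP18 -3.46, MEG3 -3.25, TXNIP -2.59, GALNT5 -2.59, CD68 -2.56, BST2 -2.38, KIT -2.08, DOCK11 -2.06, LINC02433 -1.71, CCDC178 -1.56. The rest were: SYK -1.48, PTK2B -1.44, CARMIL1 -0.95, ASXL3 -0.94, NDRG1 -0.88, LMO2 -0.69, MYO3B -0.69, GSTP1 -0.52, WARS1 -0.48, KRT18 -0.33.

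In 7 of 114 sets of 4 arrays, 1 array stood apart from the other 3 by Dixon's ratio, and chance gives about 1 in 20. In high-imatinib line 2 these were array 1 for TMOD2 (8.13), array 2 for MYO3B (7.07), and array 4 for THBS1 (7.73) and XBP1 (7.86). In low-imatinib line 2 they were array 4 for GALNT5 (8.86), array 2 for KRT18 (10.1) and array 1 for BCR (8.40). KRT18 lost its call without array 2 of low-imatinib line 2 (-0.25; limma, adjusted p = 0.0773) and without array 4 of high-imatinib line 2 (-0.27; limma, adjusted p = 0.0532). The other 6 kept their side of the threshold without the array in question.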

How the results depend on the processing

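No line 2 call among the 57 named genes changed sign in the gene-level alternatives, and the signs of other genes were not checked. The balance of line 2 calls did turn, from 54.2% on the higher side as reported. It was 49.3% with quantile normalization and 49.9% without array 3 of low-imatinib line 2. Of the comparisons' counts 220 stayed within 1.5 times the reported value while 17 moved. With every array feature tested, line 2 had 1742 features higher and 1596 lower, 212 and 281 of them by at least 1; line 1 had 5255 and 6352, with 1075 and 1244 by at least 1; and the difference of the steps had 4421 and 3679, with 1409 and 1392 by at least 1. These counts rest on more than 3 times as many features. With the technical axis taken out, 1593 genes were higher in line 2, against 1055 as reported, and the cause was not tested. The mean score on that axis was 2.73 in high-imatinib line 2 and 5.69 in low-imatinib line 2. Leaving out each array in turn gave 794 to 915 genes higher and 688 to 827 lower in line 2, with 62 to 74 and 83 to 91 by at least 1. In the fit to set means, the count of called genes ranged from 0 to 270 when each set was left out, the 270 where high-imatinib line 2 was absent and 2 where high-imatinib line 1 was, against 0 with both. Windows of 15 and 40 genes gave 15 and 2 segments. Of 844 values for named genes 12 lost their call, 9 for FZD6 and 3 for KRT18, and of 180 counts for lists and chromosomes 18 moved. The array numbers did not pair the samples, with 1 of 4 arrays of high-imatinib line 2 correlating best with its own number. With the array number as a replicate block, 1027 genes were higher and 869 lower in line 2. Blocking the 4 imatinib lines by line number in the fit to set means called 0 genes. Depth cannot be given for arrays, and signal over background was not used.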

Other observations

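Short noncoding RNA genes of 2 further families were noticed after their values were seen. Their counts stand beside 7.09% higher and 5.98% lower among all genes in line 2. In line 1 these shares were 13.9% and 19.9%. Of 8 measured genes of small NF90-associated RNAs, a primate family bound by a double-stranded RNA-binding protein, 6 were lower, among them SNAR-H (-0.95 ± 0.16), and 7 were lower in line 1, SNAR-H with -1.87 ± 0.16. These genes are near-identical copies whose signals may come from the same transcripts, so they are not separate measurements. Of 4 vault RNA genes, the RNA part of the vault particle, VTRNA1-1 (-0.72 ± 0.23) and VTRNA1-2 (-1.11 ± 0.27) were lower in line 2 and the other 2, VTRNA1-3 (-0.55 ± 0.20) and VTRNA2-1 (-0.06 ± 0.22), were not called. In line 1 VTRNA1-3 was lower (-0.76 ± 0.20) and VTRNA2-1 higher (0.78 ± 0.22), while VTRNA1-1 (0.28 ± 0.23) and VTRNA1-2 (0.40 ± 0.27) were not called.

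Genes past both calls include the following, picked after their values were seen. FLT1, a receptor for vascular endothelial growth factor, read 5.25, 5.59, 5.54 and 5.36 in high-imatinib line 2, against 7.44, 7.30, 7.40 and 7.32 in low-imatinib line 2. It differed by -1.93 ± 0.11 in line 2 and by 0.57 ± 0.11 in line 1. FGF2, a fibroblast growth factor, differed by -1.55 in line 2 and by -2.98 in line 1. ANGPT1, a ligand of the receptor TEK, had -1.22 in line 2 and 1.72 in line 1. PDGFC, a ligand of platelet-derived growth factor receptors, had -1.01 and 0.01. These 4 were lower in line 2, whereas the growth factor PTN was higher there (1.59) and lower in line 1 (-1.30). The lipid carriers APOC1 (-1.71) and APOE (-1.08), neighbours on chromosome 19, were both lower in line 2.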
